A study of Mus musculus with 95 samples.

Results

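The 150 probes described here are those with the largest excess in B cell segments of normal mouse thymus, chosen by their values in control segments from 20175 probe IDs of a whole-transcriptome panel. Counts were pooled over all control segments of a class and scaled to CPM, which sets every library to the same total. A probe was eligible when log2(CPM + 1) ranged by 0.5 or more over the 5 control classes and its B level was 30 CPM or more, which 2462 probes met. Of these, 884 were higher in B than in any other class, and the 150 with the largest difference between B and the next class were taken. They are read out in segments of thymoma, which played no part in the choice.

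B cells are a small resident population of the normal thymus. They lie mainly in the medulla and at its border with the cortex, where they present antigen to developing T cells during negative selection. B220, the surface marker used here to find them, is a form of CD45 that some dendritic cells, the plasmacytoid ones, carry as well. Thymoma is a tumour of thymic epithelium that often holds many non-neoplastic lymphocytes.

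Fixed and embedded thymus of 8 mice was hybridised with the probes, and 95 segments of tissue were collected under fluorescent masks for B220 (B cells), pan-cytokeratin (epithelium) and CD3 (T cells). The 4 thymoma mice (1042, 1044, 1082 and 1157) were labelled Gtf2ifl/wt Foxn1-Cre/wt. They carry the L424H mutation of Gtf2i, which encodes a widely expressed transcription factor, as a knock-in with Cre in Foxn1, a gene active in thymic epithelium. The 4 controls were labelled without Cre. Mice 1057 and 1059 were Gtf2ifl/fl, and mice 1143 and 1172 were Gtf2ifl/wt. Age was not given in the sources used here. Thymoma gave 12 B, 13 epithelium and 12 T cell segments. Control thymus gave 10 B, 13 cortical epithelium, 11 medullary epithelium, 13 cortical T and 11 medullary T cell segments, with none from the medulla of mouse 1059. Titles name the mice in pairs, each of 1 genotype, and both thymoma pairs share theirs. Between the control genotypes, and between thymoma and control, the pair and the genotype cannot be told apart.

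The mouse was the replicate, and the segments of a mouse and class were summed to 1 library. Library totals were 3286275 to 8468431 counts in thymoma B, 5262278 to 13328944 in thymoma epithelium and 10700536 to 17653470 in thymoma T. Control libraries held 63805 to 36879809 counts. Mouse 1143 was shallow in every class: its B library of 63805 counts had 3682 probes at 0, and 3 counts in it equal 47.0 CPM. The 22 regions with a B segment gave no other segment, so the B220 mask and the place of the region cannot be told apart. No file or reference table used here pairs the probe IDs with genes. The label "B cell" could therefore not be checked against defining markers, the members' functions are not given, and whether the B220 gene is a member is unknown.

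In the control segments that chose them, the members had a median excess of 1.13 (log2) over the next class, with 3.55 for the first and 0.83 for the last. The threshold fell in a flat stretch: ranks 149 and 150 had 0.8314 and 0.8253, and ranks 151 and 152, just outside, 0.8243 and 0.8239. Pooled B levels ran from 34.8 to 5466 CPM with a median of 114 CPM, and 3 members lay above 1000 CPM. The next highest class was medullary epithelium for 59 members, medullary T cells for 59, cortical epithelium for 29 and cortical T cells for 3. These values made the list and are given as a description. Of the pooled control B counts, 59.6% came from mouse 1059, 33.6% from 1172, 5.85% from 1057 and 0.903% from 1143. The list shared 120 members with one chosen without mouse 1057, 121 without 1059, 148 without 1143 and 141 without 1172.

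In thymoma, too, the members were highest in B segments. Summed over the list, they reached 46130, 39244, 46087 and 39313 CPM in the B libraries of thymoma mice 1042, 1044, 1082 and 1157. In the epithelium libraries of the same mice the sums were 16528, 25279, 15199 and 22740 CPM. In their T cell libraries they were 8639, 13606, 12182 and 11220 CPM. Libraries of the 3 classes did not overlap, with B highest and T cells lowest in each mouse. As a share of all counts, the members made up 4.27% ± 0.39 in thymoma B, 1.99% ± 0.48 in thymoma epithelium and 1.14% ± 0.21 in thymoma T libraries (SD, n = 4 mice each). Among single segments the sum ran from 36214 to 53285 CPM in the 12 B segments, from 13504 to 34518 in the 13 epithelium segments and from 7484 to 15388 in the 12 T cell segments, so B segments stood apart while epithelium and T cell segments overlapped. In segments of many cells, fewer cells of a type and less RNA per cell cannot be told apart.

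**Figure D1:**
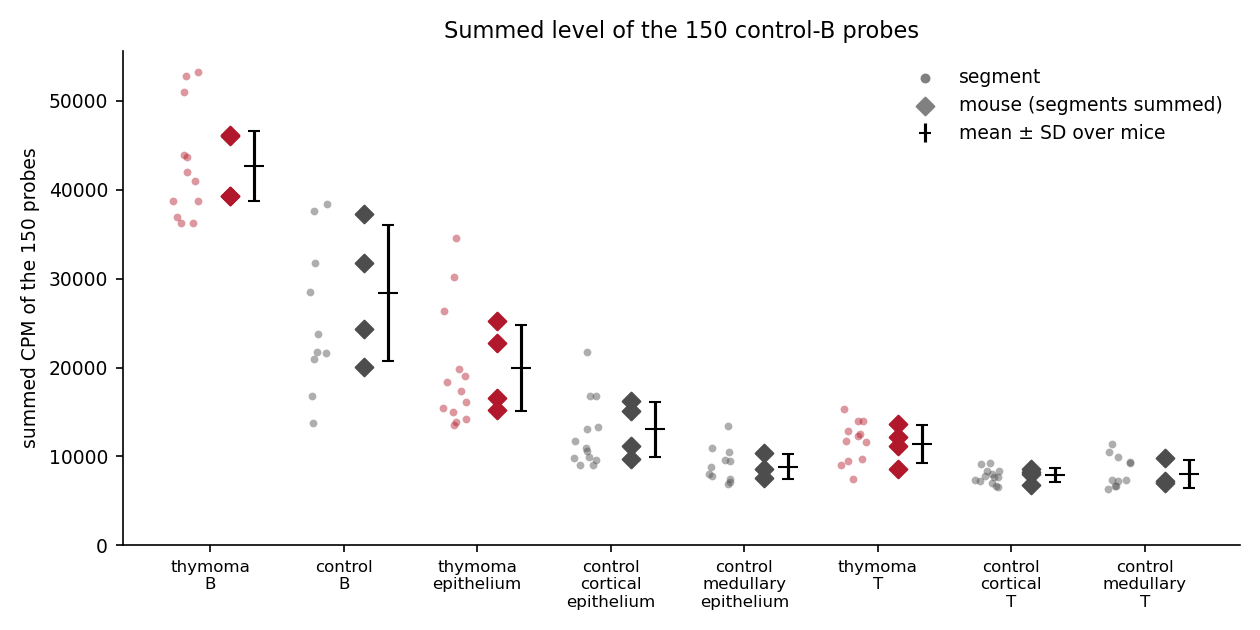
Summed CPM of the 150 members (vertical axis) in each group of segments; small points are segments, diamonds are mice with their segments summed, and bars give the mean ± SD over mice (n = 4, or 3 for control medulla). Thymoma B libraries lay between 39244 and 46130 CPM, above all thymoma epithelium (15199 to 25279) and T cell libraries (8639 to 13606); the control groups, in dark grey, include the values that chose the list.

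Part of this sum rested on few probes. The member most abundant in pooled control B segments had 13323, 6400, 10080 and 3631 CPM in the B libraries of mice 1042, 1044, 1082 and 1157, against 6572, 8646, 4774 and 8113 CPM in their epithelium libraries. It was higher in B in 2 mice and higher in epithelium in the other 2. Without the 3 members above 1000 CPM in pooled control B segments, the sums were 27291 ± 2236 CPM in thymoma B, 8649 ± 990 in thymoma epithelium and 7028 ± 889 in thymoma T libraries (SD, n = 4 each). The mean ratio of the sums within a mouse was 2.28 for B over epithelium with all members and 3.18 without these 3. For epithelium over T cells it was 1.76 with all members and 1.23 without them. The median member had 145 ± 6.8 CPM in thymoma B, 41.4 ± 7.9 in thymoma epithelium and 34.4 ± 5.1 in thymoma T libraries (SD, n = 4 each).

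B and T cell segments of thymoma were compared first, in a fit across all probes with the mouse as a block (edgeR's quasi-likelihood test, p adjusted over all probes by Benjamini-Hochberg, threshold 0.05). Of the 150 members, 147 were higher in B, against a background of 7.20% of all 20175 probes tested. None was lower, against a background of 12.8%. None was lower at an unadjusted p below 0.05 either, nor by DESeq2 or limma, where 18.3%, 13.2% and 9.96% of all probes were lower. The median log2 fold change of the members was 1.73, where that of all probes was 0.03, and the members ran from 0.32 to 4.82. All 150 were above 0 and 139 were above 1, and the shares of all probes above these values are not given.

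Against thymoma epithelium, 138 members were higher in B segments and none was lower by the same test. The background was 11.3% of all probes higher and 18.1% lower. At an unadjusted p below 0.05, 141 members were higher and none lower, against 19.6% and 22.6% of all probes. DESeq2 and limma also called none lower, against 16.3% and 12.6%. The median log2 fold change was 1.57 for the members and 0.04 for all probes, with a range over members of -0.38 to 4.37. The same 138 members were higher in B in both comparisons, where the background was 5.07%, or 1023 probes. B libraries held fewer counts than T cell libraries in each thymoma mouse, and fewer than epithelium libraries in 3 of 4, with mouse 1044 the exception. The part of depth in these counts was not tested. When the tested probes were limited to those above the median level, 149 members entered, with 147 and 138 of them higher in B than in T cells and in epithelium, against 18.4% and 25.0% of the probes so tested.

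**Figure D2:**
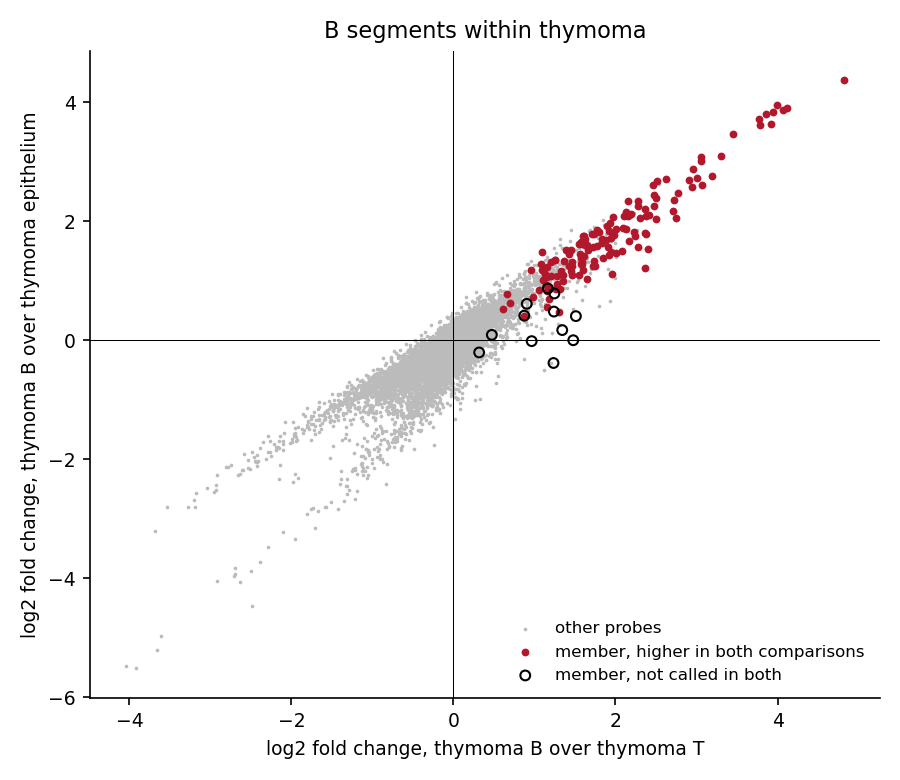
Log2 fold change of thymoma B over thymoma epithelium (vertical) against thymoma B over thymoma T (horizontal) for every probe; red points are the 138 members higher in B in both comparisons, open circles the 12 other members, grey points all other probes. Members fill the upper right corner, with medians of 1.73 over T cells and 1.57 over epithelium.

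Counted by mouse without a model, 137 members were above both other classes in the B library of every one of the 4 thymoma mice. The background for this order was 17.4% of all probes. Counted by segment, 121 members had their lowest B segment above every epithelium and T cell segment of thymoma, against a background of 1.84%. The median excess of the members in B over the higher of the other classes was 1.75 (log2) in mouse 1042, 1.32 in 1044, 1.73 in 1082 and 1.62 in 1157. The median of all probes in the same mice lay between -0.13 and 0.21. In numbers of members, the excess was above 0 for 147, 142, 150 and 139 of 150 in these mice, and for 66.9%, 52.2%, 29.7% and 65.1% of all probes.

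For the control mice the same excess is partly fixed by the choice, so lists of 150 were also chosen without each mouse and read in it. The median excess was then 1.03 in mouse 1057, 1.40 in 1059, 0.48 in 1143 and 0.96 in 1172, with 141, 150, 104 and 150 of the 150 probes above 0, against 31.6%, 32.3%, 27.0% and 17.7% of all probes. The mouse with the low value, 1143, is the shallow one, and 10 of the 150 members had no count in its B library. The full list had medians of 1.14, 1.45, 0.51 and 0.98 in the same mice. Mouse 1059 gave no medullary segment, so its values are an excess over the cortical classes only. In the rule, medullary epithelium and medullary T cells were each the next class for 59 members. The value of mouse 1059 is therefore on a different footing from the other 3.

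**Figure D3:**
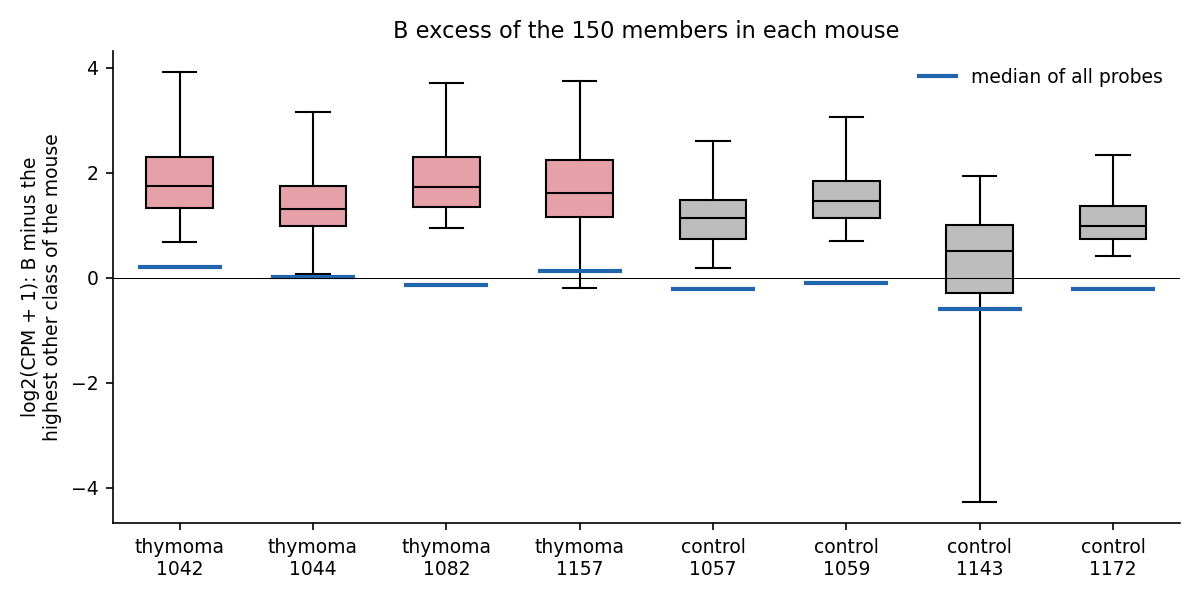
Excess of the 150 members in each mouse, as log2(CPM + 1) in B minus the highest other class of that mouse; boxes give the quartiles and median over members, whiskers the 5th to 95th percentile, and blue lines the median of all 20175 probes. The 4 thymoma mice have medians of 1.32 to 1.75. Control mice helped to choose the list, and control mouse 1059 has only cortical classes beside B.

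When the rule was applied to the pooled thymoma classes in place of the control classes, with the same limits on range and level, 2597 probes were eligible, 149 members among them. The top 150 of that ranking shared 102 probes with the members, or 68% of each list. All 10 of the first 10 members and 46 of the first 50 were in it, but 22 of the last 50. The median member stood at rank 97 in thymoma and the lowest at 1452. The median excess of the members was 1.68 in thymoma and 1.13 in control, and it was larger in thymoma for 125 of 150. In thymoma it is a difference from 2 other classes and in control from 4, so these sizes are on different footings. Across the 150 members the 2 excesses had a Pearson correlation of 0.74 and a Spearman correlation of 0.59, as a description over probes that share libraries and depth.

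The rank in control went with the size of the difference in thymoma. The first 50 members had median log2 fold changes of 2.47 for B over T cells and 2.31 for B over epithelium. Members 51 to 100 had 1.61 and 1.45, and members 101 to 150 had 1.40 and 1.24. Of these blocks, 48, 45 and 45 members were higher in B in both comparisons. By next class in control, the 59 members with medullary T cells next had medians of 1.96 over T cells and 1.84 over epithelium in thymoma, and 58 were higher in both. The 59 with medullary epithelium next had 1.89 and 1.58, and 54 were higher in both. The 29 with cortical epithelium next had 1.24 and 0.87, and 23 were higher in both.

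RTS0063687 headed the list in control and also had the largest difference in thymoma. Its level was 588, 472, 532 and 843 CPM in the thymoma B libraries of mice 1042, 1044, 1082 and 1157. In the epithelium libraries of these mice it was 21.0, 33.6, 19.7 and 34.0 CPM, and in their T cell libraries 15.0, 27.3, 15.9 and 22.5 CPM. Every thymoma B library was above every other thymoma library. The log2 fold change was 4.82 ± 0.24 (SE) for B over T cells, with an edgeR adjusted p of 4.13e-08, and 4.37 ± 0.22 for B over epithelium, with an edgeR adjusted p of 8.49e-09. In the control B libraries of mice 1057, 1059, 1143 and 1172 it had 278, 286, 31.3 and 188 CPM, the third of these below the level of 3 counts.

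RTS0063616 was the second by the same rule. It had 395, 569, 485 and 681 CPM in thymoma B libraries of mice 1042, 1044, 1082 and 1157, against 23.2, 43.3, 27.2 and 32.7 CPM in epithelium and 23.3, 39.3, 28.9 and 32.7 CPM in T cells. The groups did not overlap between B and the other classes, and epithelium and T cells lay at one level. The log2 fold changes were 3.99 ± 0.19 over T cells (edgeR adjusted p 4.13e-08) and 3.95 ± 0.19 over epithelium (edgeR adjusted p 8.49e-09). Control B libraries of mice 1057, 1059, 1143 and 1172 held 280, 459, 94.0 and 342 CPM. In all, 13 members had a log2 fold change above 3 in both comparisons, and the share of all probes above 3 is not given.

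The 12 members that were not called higher in both comparisons were those not called higher in B than in epithelium. Their B over epithelium log2 fold changes ran from -0.38 to 0.87, and 3 members were below 0. The 2 lowest are named here, chosen after their values were seen, since no member was called lower in B.

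RTS0081628 had 867, 321, 3131 and 137 CPM in the thymoma B libraries of mice 1042, 1044, 1082 and 1157. Its epithelium libraries held 360, 478, 2385 and 666 CPM and its T cell libraries 87.3, 109, 1519 and 210 CPM. Mouse 1082 was the highest in every class, and B was above epithelium in 2 of 4 mice. The log2 fold change was -0.38 ± 0.43 for B over epithelium (edgeR adjusted p 0.53), 1.23 ± 0.46 for B over T cells (edgeR adjusted p 0.076) and 1.64 ± 0.16 for epithelium over T cells (edgeR adjusted p 2.25e-07). Without mouse 1157 the B over T cell value was 1.86 and passed the threshold. It is also the member with the largest difference between thymoma B and control B, where the 4 control libraries lay between 38.7 and 234 CPM. The controls helped to choose the list, so values against control are a description. The log2 fold change over control B was 3.33 ± 0.75 (SE), with an edgeR adjusted p of 0.37. In epithelium it was 4.18 ± 0.67 over control cortical and 4.79 ± 0.75 over control medullary segments (edgeR adjusted p 0.0057 and 0.010). In T cells it was 3.55 ± 0.87 over control cortical and 4.09 ± 1.01 over control medullary segments (edgeR adjusted p 0.15 and 0.045). In control mice the B excess of RTS0081628 was -1.14 in 1057, 2.88 in 1059 (cortical classes only), -1.39 in 1143 and 1.16 in 1172.

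RTS0068138 had the smallest log2 fold change of all members for B over T cells. Its level was 318, 332, 375 and 205 CPM in thymoma B, 310, 372, 235 and 363 CPM in thymoma epithelium and 232, 272, 172 and 229 CPM in thymoma T libraries of mice 1042, 1044, 1082 and 1157. B overlapped with both other classes. Its log2 fold changes were 0.32 ± 0.22 over T cells (edgeR adjusted p 0.36) and -0.20 ± 0.23 over epithelium (edgeR adjusted p 0.53).

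**Figure D4:**
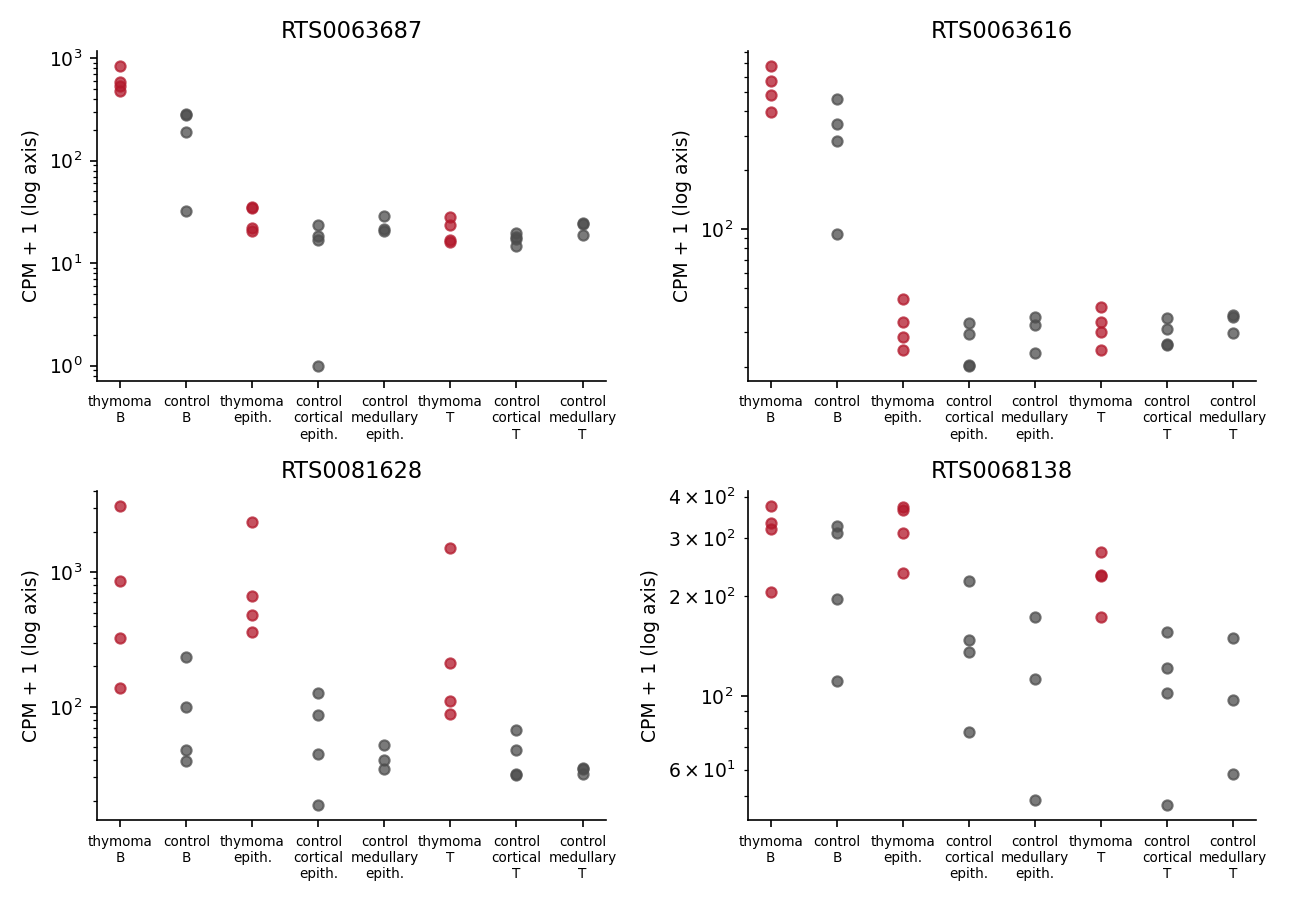
CPM + 1 on log axes of 4 members in each library, 1 point per mouse, thymoma in red and control in dark grey. RTS0063687 and RTS0063616 separate thymoma B (472 to 843 and 395 to 681 CPM) from thymoma epithelium (19.7 to 34.0 and 23.2 to 43.3 CPM) and T cells (15.0 to 27.3 and 23.3 to 39.3 CPM); RTS0081628 and RTS0068138 overlap between B and epithelium, and RTS0081628 is highest in mouse 1082 in each thymoma class.

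Members also differed between the thymoma classes that B220 did not mark. In epithelium against T cell segments, 77 members were higher in epithelium and 4 were lower, in the same edgeR test with the mouse as a block. The background was 14.2% of all probes higher and 11.0% lower. The sizes were small: the median log2 fold change was 0.20 for the members and -0.03 for all probes, and 6 members were above 1. The levels were low as well, with the median member at 41.4 CPM in epithelium and 34.4 CPM in T cells. No background was subtracted, and its part in these differences was not tested. The 4 lower members lay between -0.40 and -0.20, and 2 were called without mouse 1042 and 2 without mouse 1082, against 6.28% and 8.14% of all probes. Epithelium was above T cells in each of the 4 thymoma mice for 63 members, against a background of 16.4%. Of the 77 higher members, 65 were also higher in B than in both classes. In the whole list, 138 members, or 92.0%, were higher in B than in both. The 12 members not called higher in both were all among the 77, so every member outside the 77 was higher in B than in both. The share of all probes for this overlap is not given. Without the block no member was called in either direction, against 0.0644% of all probes higher and 0% lower. At an unadjusted p below 0.05 that fit had 44 members higher and 1 lower, against 8.57% and 3.40%. DESeq2 with the block called 54 higher and 1 lower, against 8.42% and 3.67% of all probes. limma called 64 and 7, against 12.1% and 13.4%. From 12 regions of thymoma both an epithelium and a T cell segment were collected.

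Levels of the members also varied between thymoma mice. The SD of log2(CPM + 1) over the 4 thymoma B libraries had a median of 0.24 over members and 0.15 over all probes, and it was also 0.15 over probes of 30 CPM or more. It exceeded 0.5 for 17 members, and for 1.38% of all probes. In thymoma epithelium the medians were 0.29 for members and 0.18 for all probes, and in thymoma T cells 0.24 and 0.18. Mouse 1044 had the highest level of 95 members in epithelium and of 99 in T cells, but of 17 in B. Mouse 1157 was highest for 69 members in B. Mouse 1042 was lowest for 111 members in T cells. Shares over all probes are not given for these counts by mouse, so they are not read as particular to the members. Mouse 1044 also had the smallest thymoma epithelium and T cell libraries (5262278 and 10700536 counts), and the part of depth was not tested. The member ranked 4 in control had 241, 125 and 323 CPM in the B libraries of mice 1042, 1044 and 1082, and 29.0 CPM in that of mouse 1157. It differed between control mice as well, with 12.1, 170, 0 and 149 CPM in the B libraries of 1057, 1059, shallow 1143 and 1172.

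**Figure D5:**
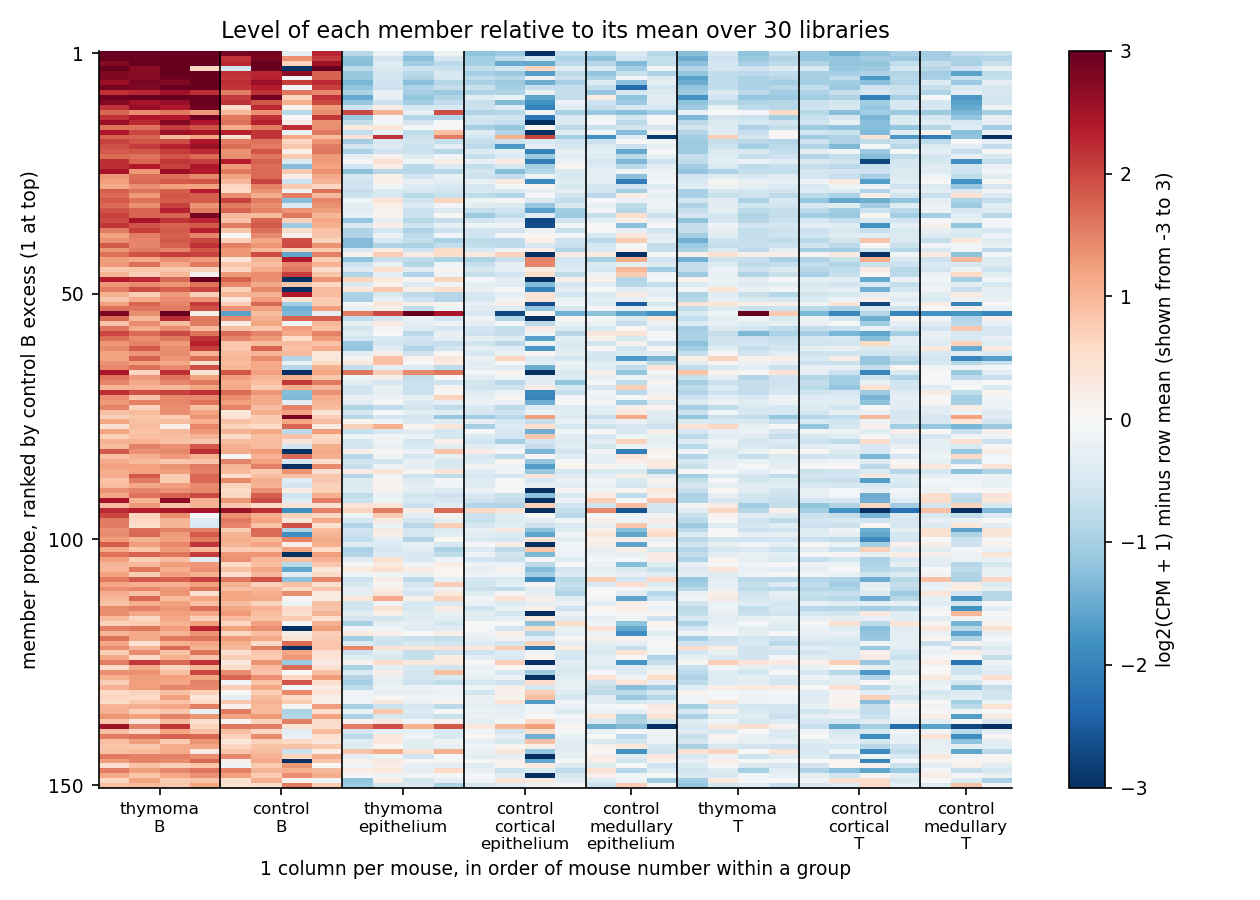
Each row is 1 of the 150 members, ordered by its excess in control B with the first at the top, and each column 1 mouse within a group; colour gives log2(CPM + 1) minus the mean of the row over 30 libraries. Thymoma B columns are red in nearly all rows, as are control B columns other than the third, shallow mouse 1143, which is mixed. A few rows are red in thymoma epithelium too. The columns of mouse 1143 hold blue cells where few counts were found and dark blue cells where none was.

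Thymoma and control segments of like class were set side by side as a description, since every control segment helped to choose the members and a high control B level is part of the rule. In B segments, no member differed by the edgeR test, where the background was 0.00496% higher (1 probe) and 0% lower. At an unadjusted p below 0.05, 60 members were higher in thymoma B and none lower, against 4.59% and 4.50% of all probes. The median log2 fold change was 0.48 for members and -0.01 for all probes. The summed level was 42693 ± 3944 CPM in thymoma B and 28383 ± 7675 in control B libraries (SD, n = 4 each), with control mouse 1059, at 37324, the nearest to thymoma. The median was 0.65 without control mouse 1059. A list chosen on the Gtf2ifl/fl controls had a median of 0.76 against the Gtf2ifl/wt controls, which include shallow mouse 1143. A list chosen on the Gtf2ifl/wt controls had a median of 0.36 against the Gtf2ifl/fl controls. No probe was called in either, and none of this is a test of the list.

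In epithelium, 11 members were higher and none lower in thymoma than in control cortical epithelium, against backgrounds of 2.40% and 1.03%. At an unadjusted p below 0.05, 4 were lower, against 13.1%. Against control medullary epithelium 22 were higher and 4 lower, with backgrounds of 7.28% and 2.81%. The medians were 0.26 and 0.22 for members, where those of all probes were -0.04 and -0.09. The counts of members and of all probes both moved when 1 mouse was left out. Higher than control cortical epithelium were 5 members without thymoma mouse 1042, 25 without 1082 and 5 without 1157, against 0.719%, 3.83% and 0.892% of all probes. They were 3 without control mouse 1057, 3 without 1059, 21 without 1143 and 1 without 1172, against 0.287%, 0.456%, 5.91% and 0.203%. Higher than control medullary epithelium were 8 without thymoma mouse 1042 and 11 without 1044, against 1.05% and 3.86%. They were 15 without 1082 and 2 without 1157, against 2.85% and 0.540%. They were 22 without control mouse 1057, 30 without 1143 and 0 without 1172, against 7.77%, 12.2% and 0.0248%. Lower than control medullary epithelium were 1 without thymoma mouse 1042, 2 without 1082 and 1 without 1157, against 0.392%, 1.14% and 0.243%. They were 2 without control mouse 1057, 7 without 1143 and 0 without 1172, against 2.44%, 5.82% and 0.124%.

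In T cell segments, no member differed between thymoma and control cortical T cells, where the background was 0% higher and 0.00496% lower. At an unadjusted p below 0.05, 36 were higher and 3 lower, against 9.74% and 13.2%. Without shallow control mouse 1143, 27 members were higher and 3 lower, against backgrounds of 6.72% and 8.32%, and without thymoma mouse 1082, 1 was higher, against 0.00496%. Against control medullary T cells 7 were higher and 4 lower, with backgrounds of 3.92% and 1.25%. None was called in either direction without thymoma mouse 1042, 1082 or 1157 or without control mouse 1172, where the background was at most 0.00496% higher and 0.0248% lower (0.00991% without mouse 1042). Without thymoma mouse 1044, 1 was higher and 0 lower, against 0.401% and 0.124%. Without control mouse 1057, 8 were higher and 0 lower, against 5.28% and 0.639%. Without control mouse 1143, 16 were higher and 12 lower, against 10.0% and 4.80%. The medians of members were 0.17 against cortical and 0.05 against medullary T cells, and the second turned to -0.17 with upper-quartile scaling, which moved the median of all probes by -0.22 in that comparison.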

How the data were processed

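GeoMx segments of thymoma and control mouse thymus were grouped by mouse, mask and compartment from the labels. The values the authors deposited are raw counts of each probe, 1 file a segment, per the file headers, and a probe that a file omits was given 0. Other steps upstream are not given in the sources used here. Counts of the segments of a mouse and class were summed. Groups were compared with edgeR 4.0.16 (R 4.3.3; filterByExpr, TMM, quasi-likelihood test) over all probes, adjusted by Benjamini-Hochberg, threshold 0.05. Fits within thymoma blocked on the mouse, which the labels name. Deviations of same-mouse libraries from the class mean correlated at -0.01 to 0.82 over probes, those of different mice at 0.21 or less. Thymoma and control mice differ, so those fits had no block. Levels are CPM or log2(CPM + 1). Alternatives were DESeq2 1.42.0, limma 3.58.1, other scalings, filters and member lists, and leaving out each mouse. The code was tested on simulated data.

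The members and lists were chosen with earlier results of these data known. Members named by ID are the 2 with the largest smaller fold change of B over T cells and B over epithelium; no member was called lower, so the 2 lowest were added after their values were seen. Marker and pathway lists could not be used, since probe IDs have no gene names here, and no background was subtracted, as negative controls carry no mark. The level of 3 counts is a mark for low counts only, and values below it were kept.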

Additional observations from a re-analysis of the deposited data

Results flagged for a closer look

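Of 30 groups of 4 libraries tested, not all of them of 1 probe, 2 were flagged. Both were of RTS0081628, where mouse 1082 lay far from the other 3 mice, so the 2 flags share a mouse. The level of RTS0081628 in mouse 1082 was 2385 CPM in thymoma epithelium, against 360 to 666 CPM in the other 3. In thymoma T cells it was 1519 CPM, against 87.3 to 210 CPM. Chance flags about 1 in 20 groups. Over all 150 members the same measure on log2 levels marked 5 in thymoma B, 7 in thymoma epithelium and 11 in thymoma T libraries. These are 3.33%, 4.67% and 7.33% of members, near the rate of 1 in 20, and the share over all probes is not given.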

How the results depend on the processing

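The counts of members higher in thymoma B stayed within 1.5 times under every alternative run: 143 to 149 of 150 over T cells and 134 to 144 over epithelium across tools, scalings, filters and left-out mice, with 98 and 93 for a list of 100 members and 194 and 181 for one of 200. Across those tools, scalings, filters and left-out mice, 5.26% to 18.4% of all probes were higher in B than in T cells and 6.32% to 25.0% higher than in epithelium. With classes averaged over mice in the rule, 1 member was lower in B than in T cells and 2 lower than in epithelium. Without the replicate block, 146 and 135 members were higher in B, but for epithelium over T cells 0 were higher and 0 lower, against 77 and 4 with it; the pairing comes from the labels. The 4 lower became 1 with DESeq2, 9 with upper-quartile scaling, 7 with limma, 0 with 100 members, and 10 with 200 members or with a B minimum of 100 CPM; without each mouse in turn they were 2 to 5, and the higher 61 to 86. Of all probes, 3.67% were lower with DESeq2, 19.1% with upper-quartile scaling and 13.4% with limma. Without each mouse in turn, 5.78% to 8.14% of all probes were lower and 11.9% to 13.9% higher.

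Against controls, leaving out 1 mouse at a time gave 1 to 25 members higher than cortical epithelium, against 0.203% to 5.91% of all probes. It gave 0 to 30 higher and 0 to 7 lower than medullary epithelium, against 0.0248% to 12.2% and 0.124% to 5.82%. It gave 0 to 27 higher and 0 to 3 lower than cortical T, against 0% to 6.72% and 0% to 8.32%. It gave 0 to 16 higher and 0 to 12 lower than medullary T, against 0% to 10.0% and 0% to 4.80%. The thymoma B over control B median ran from 0.41 to 0.65 in this way, and was 0.76 and 0.36 for lists chosen on Gtf2ifl/fl and Gtf2ifl/wt controls. Upper-quartile scaling gave 1, 11 and 20 members lower than control cortical epithelium, medullary epithelium and medullary T, or 0.667%, 7.33% and 13.3% of members, where 4.05%, 18.8% and 15.7% of all probes were lower, and a median of -0.17 over medullary T. It moved the median of all probes by -0.14, -0.22, -0.13 and -0.22 in the epithelium and T cell comparisons with control, and by 0.14 for B over epithelium in thymoma. The cause was not tested.

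RTS0063616 for epithelium over T cells turned to -0.0085 with upper-quartile scaling. RTS0081628 for B over epithelium turned to 0.14 without the block and ran from -0.88 to 0.27 without each mouse in turn, the positive value without mouse 1157. RTS0068138 ran from -0.50 to 0.078, likewise positive without mouse 1157. None of these was called. Without the 3 most abundant members, chosen after seeing the data, the ratio of sums was 3.18 for B over epithelium and 1.23 for epithelium over T cells. Depth limits mouse 1143 most, and the B220 mask and its regions cannot be told apart.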
